A study of Mus musculus with 3 samples.

Results

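Jchain, Mzb1, Xbp1, Prdm1, Sdc1 and Ell2 are 6 genes of the plasma cell programme, taken by name from the 27179 genes counted in cultured mouse pro-B cells with and without the transcription factor Pax5. The set was listed by name, with Jchain and Mzb1 held against the other 4. All 6 were found by Entrez number and all 6 passed the filter on low counts. RNA sequencing covered 2 independently prepared Pax5-/- samples, both male, and 1 wild-type sample, female, all on the C57BL/6 background. B220+ bone marrow cells (selected by an isoform of CD45 found on B-lineage cells) were expanded on OP9 stromal cells in every group. For the Pax5-/- samples the labels add that IgM- cells were isolated by immunomagnetic depletion at day 7, and the wild-type protocol mentions neither, so genotype, sex and this step cannot be told apart. The labels do not say which part of Pax5 the mutant allele lacks, and reads of Pax5 itself numbered 417 and 551 with the mutation and 1601 without it. Below, mutant 1 and mutant 2 are the Pax5-/- samples, and values given as a triple are for mutant 1, mutant 2 and the wild type in that order. Libraries held 6487846 to 6697879 gene counts.

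Plasma cells are the antibody-secreting end stage of the B lineage. Blimp-1, the product of Prdm1, shuts down the B-cell programme, Xbp1 expands the endoplasmic reticulum, and Ell2, an elongation factor, favours the secreted form of the heavy-chain messenger RNA. Mzb1 is an endoplasmic reticulum protein that helps immunoglobulin fold and assemble, the J chain links IgM and IgA into polymers, and Sdc1 (syndecan-1, CD138) is the usual surface marker of the mature cell. Pax5 is known to hold several of these genes down in B cells and is itself silenced when plasma cells form. Xbp1 and Mzb1 are also expressed outside plasma cells, and Jchain and Mzb1 are known in plasmacytoid dendritic cells.

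The Pax5-/- cells did not raise the 6 genes together. Jchain went from few reads to among the most abundant transcripts and Mzb1 rose modestly, while Sdc1 and Ell2 fell to low counts. Xbp1 and Prdm1 did not pass the test. In counts, 2 rose, 2 fell and 2 were not called (a call is a p under 0.05 in edgeR's quasi-likelihood test after Benjamini-Hochberg adjustment), with a median log2 fold change (log2 FC) of -1.73, against 0.01 over all 11783 genes tested. Over those genes 9.53% were called higher and 8.55% lower, 18.1% in all. The mutants alone give the spread, on 1 residual degree of freedom, and the single wild type was taken to vary as they did. In bulk RNA, fewer cells of a type and less RNA per cell cannot be told apart.

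**Figure D1:**
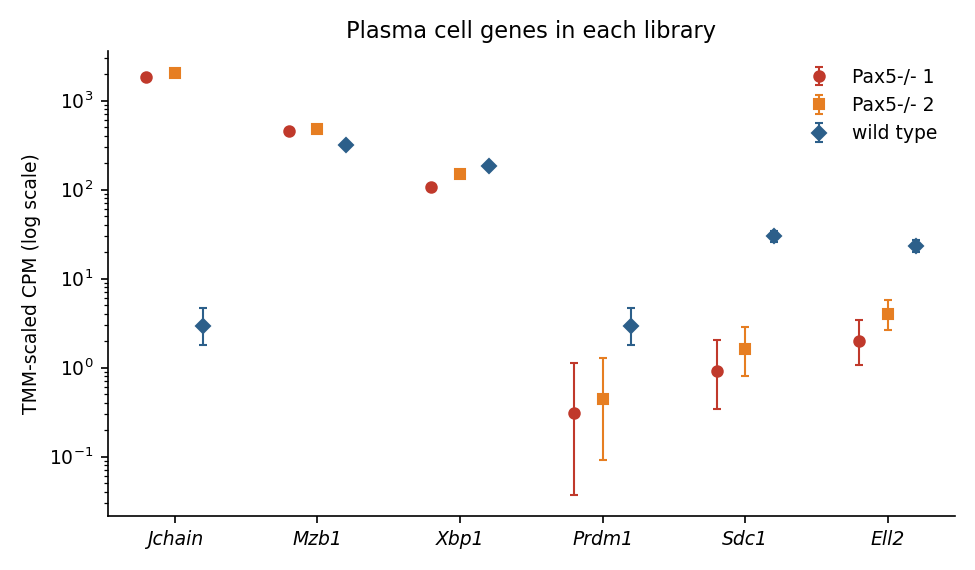
CPM (counts scaled to library size by TMM, log axis) of the 6 genes in each library; bars are exact Poisson 95% intervals, which cover counting error only. Jchain stands at 1850 and 2070 CPM in the Pax5-/- libraries and 2.96 in the wild type, Mzb1 and Xbp1 differ little, and Prdm1, Sdc1 and Ell2 are higher in the wild type.

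The regulators come first. Prdm1 (Entrez 12142; mm10 chromosome 10, 44437174 to 44528558) had 2 and 3 reads in the mutants against 19 in the wild type. It passed the filter on low counts through the wild type alone, so the filter set its direction. Exact Poisson intervals ran from 0.242 to 7.22, from 0.619 to 8.77 and from 11.4 to 29.7 reads. These intervals and the values that follow describe size only and are no support for the direction, which the filter set. The wild type exceeded the pooled mutants 7.88 times (95% counting interval 2.84 to 27). The log2 FC was -2.92 (SE 0.66), and the edgeR adjusted p of 0.0543 lay just above the threshold. It passed with RLE scaling, limma-voom, robust dispersion estimation, the likelihood ratio test and a coefficient of variation of 0.4 imposed on every gene, where the adjusted p ran from 0.000767 to 0.0492, and missed it with library size alone (adjusted p = 0.0609), without the filter (0.0511) and with DESeq2 (0.315). At 0.576 RPKM (scaled CPM per kilobase of gene length) in the wild type and 0.06 and 0.0857 in Pax5-/-, Prdm1 had the lowest level per length of the 6 genes in all 3 libraries.

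Xbp1 (Entrez 22433; chromosome 11, 5520641 to 5525993) had 688, 1018 and 1188 reads, or 106, 150 and 185 CPM. Both Pax5-/- values were below the wild type, but they differed from each other by a ratio of 1.41 (95% counting interval 1.28 to 1.55), close to the 1.44 between the wild type and their pool. The log2 FC was -0.54 (SE 0.24, edgeR adjusted p = 0.201), and no alternative called it. Per length, Xbp1 stood at 59 and 83.1 RPKM in Pax5-/- and 103 in the wild type, at the 89th, 93.1st and 93.8th percentiles of the genes above 0 in each library. Gene counts cannot separate the spliced form of Xbp1 messenger RNA, which encodes the active factor, from the unspliced form.

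Ell2 (Entrez 192657; chromosome 13, 75707484 to 75772361) had 13 and 27 reads in the mutants against 149 in the wild type. That is 2.99 ± 1.39 CPM (SD, n = 2) against 23.2 CPM. Ell2 fell by 2.95 on the log2 scale (SE 0.41, edgeR adjusted p = 0.0196) and passed the threshold under every alternative run. The Pax5-/- samples differed from each other (ratio 1.98, 95% counting interval 0.985 to 4.17), and the difference in log2 CPM was -2.47 without Pax5-/- replicate 1 and -3.35 without replicate 2. GENCODE places the antisense gene 1700037F03Rik, the sense intronic gene Gm48302 and the small nucleolar RNA gene Gm23127 within Ell2, and counting by strand is not stated, so their reads are not separated here.

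Mzb1 (Entrez 69816; chromosome 18, 35647265 to 35650266) was abundant in every library, with 2985, 3310 and 2039 reads. Both Pax5-/- samples, at 461 and 486 CPM, lay above the wild type at 318 CPM. The rise was modest, a ratio of 1.49 (95% counting interval 1.42 to 1.57) or a log2 FC of 0.57 (SE 0.11, edgeR adjusted p = 0.0406). It was not called by the likelihood ratio test (adjusted p = 0.249) or with the imposed coefficient of 0.4 (adjusted p = 1). Of all tested genes, 78.7% had a smaller fold change. Per length, the gene was at the 98.9th percentile in the wild type and the 99.3rd and 99.4th in Pax5-/-. In GENCODE the Mzb1 gene overlaps a protein-coding gene entered as SPATA24 on the same strand. In RefSeq, Spata24 lies 6.42 kilobases from Mzb1 without overlap, and had 84, 65 and 76 reads. Reads within the GENCODE overlap are not separated here.

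Jchain (Entrez 16069; chromosome 5, 88519809 to 88527897, minus strand) showed the widest difference of the set. It had 11987 and 14092 reads in the mutants against 19 in the wild type. As a share of the library this was 0.185% (exact binomial 95% interval 0.181 to 0.188) and 0.21% (0.207 to 0.214), against 0.000291% (0.000175 to 0.000454). The Pax5-/- mean of 1960 ± 155 CPM (SD, n = 2) compared with 2.96 CPM, a log2 FC of 9.36 (SE 0.19, edgeR adjusted p = 0.00234). The pooled ratio was 662, with a 95% counting interval of 424 to 1100 that is set by the 19 wild-type reads. By counts, Jchain ranked 27th and 21st of all genes in the Pax5-/- libraries and 10198th in the wild type. Per length it moved from the 28.1st percentile to the 99.6th in both Pax5-/- libraries. Its value was higher than the wild type, and the difference was called, under every alternative run.

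Few genes matched this course. Among tested genes with a mean of at least 5 CPM, the 3 closest to Jchain, by Euclidean distance of log2 CPM over the 3 samples after centring each gene, were Stum (distance 0.405), Ccr2 (0.423) and Igf2 (0.477). Stum, of which little is known in blood cells, had 2707, 3599 and 5 reads. Ccr2, a chemokine receptor of monocytes, had 8149, 7549 and 15. Igf2, the fetal growth factor, had 2930, 5095 and 3. Only Jchain and Ccr2 combined under 5 CPM in the wild type with at least 500 CPM in both Pax5-/- samples, limits chosen after the values were seen. With 3 samples and 1 large step, closeness reflects mainly the size of that step.

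Stretches before the transcription start are shown for Jchain, which rose, Sdc1, which fell, and Xbp1, which was not called, because they differ in base composition. They are RefSeq sequences of GRCm38.p6 (mm10), 5′ to 3′ on the gene's strand. Capitals mark matches to 9 short motifs on either strand. They were the E-box CANNTG, the cAMP response element core ACGTCA, the CCAAT box, the GC box GGGCGG, the TATA box TATAAA, the octamer ATGCAAAT, the PU.1 core GAGGAA, the Pax5 core GCGTGAC and, as part of the endoplasmic reticulum stress element, CCACG.
Jchain, chr5:88527898-88528147, minus strand: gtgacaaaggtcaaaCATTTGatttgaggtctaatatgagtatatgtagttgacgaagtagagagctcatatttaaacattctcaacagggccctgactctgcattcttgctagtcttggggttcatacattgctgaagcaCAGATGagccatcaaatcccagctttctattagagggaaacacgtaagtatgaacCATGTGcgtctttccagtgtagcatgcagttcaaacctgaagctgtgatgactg
Xbp1, chr11:5520391-5520640, plus strand: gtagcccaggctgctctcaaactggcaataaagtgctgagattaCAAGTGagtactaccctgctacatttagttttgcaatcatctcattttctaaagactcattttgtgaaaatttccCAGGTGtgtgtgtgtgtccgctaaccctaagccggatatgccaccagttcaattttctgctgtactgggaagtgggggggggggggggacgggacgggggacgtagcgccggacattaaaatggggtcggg
Sdc1, chr12:8771146-8771322, plus strand: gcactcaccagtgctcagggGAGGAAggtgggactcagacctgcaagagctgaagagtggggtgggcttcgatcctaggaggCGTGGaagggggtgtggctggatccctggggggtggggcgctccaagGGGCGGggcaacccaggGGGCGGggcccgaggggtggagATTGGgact
The Jchain stretch held 3 E-boxes, at 235, 109 and 54 bases before the start, and no match to the other 8 motifs. An E-box of this form occurs in 66.2% of 32851 RefSeq promoters of that length. The stretch was 42% G and C, against a median of 52.4%. Xbp1 had 2 E-boxes, at 206 and 131 bases, and 50.4% G and C. The Sdc1 stretch, cut to 177 bases where the GENCODE transcript begins, was 68.4% G and C (median of promoters 51.4%). It held 2 GC boxes, found in 20.6% of promoters, with 1 CCAAT box (24.4%), 1 PU.1 core (16.9%) and 1 CCACG (20.1%). The Pax5 core was in none of the 3, and occurs in 1.78% of promoters of 250 bases. These matches are letters only, and binding was not measured here.

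Sdc1 (Entrez 20969; chromosome 12, 8771396 to 8793716) had 6 and 11 reads in the mutants against 193 in the wild type. Both Pax5-/- values, at 0.926 and 1.62 CPM, lay far below the wild type at 30.1 CPM. Sdc1 fell by 4.54 on the log2 scale (SE 0.35, edgeR adjusted p = 0.00606), and all alternatives called it. Without Pax5-/- replicate 1 the difference in log2 CPM was -3.99 and without replicate 2 it was -4.62. The wild-type level was 9.85 RPKM, the 55th percentile of genes above 0 there. In the mutants it stood at the 14.6th and 19.2nd percentiles.

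**Figure D2:**
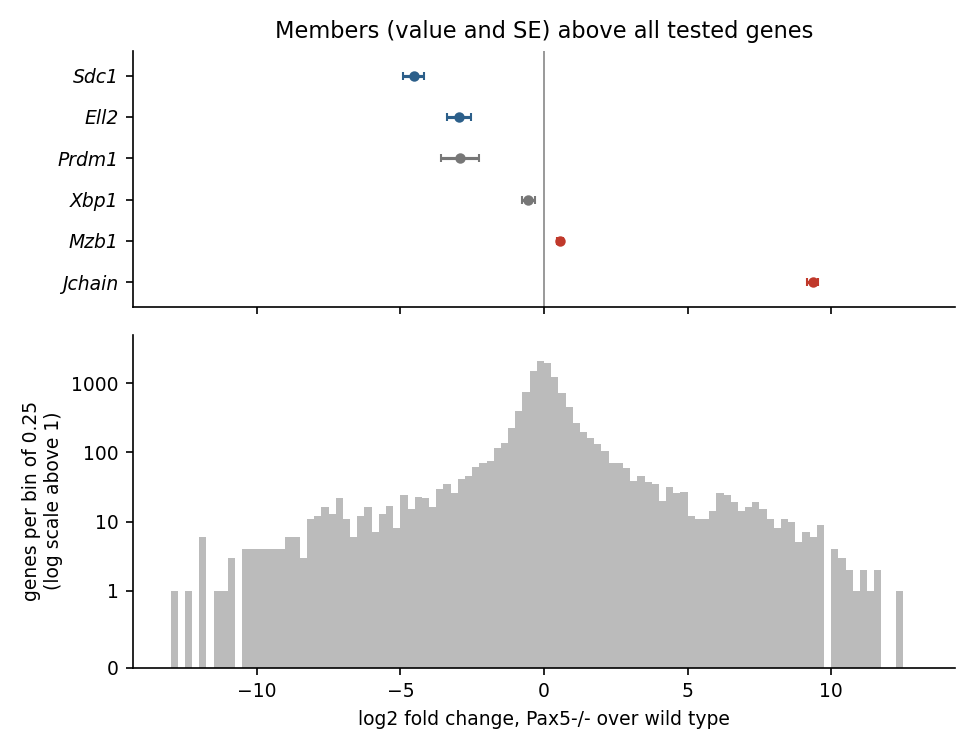
Upper panel: fitted log2 FC of each gene with its SE (red called higher, blue called lower, grey not called). Lower panel: number of tested genes per bin of 0.25 on the same axis, with a count axis that is logarithmic above 1; Jchain at 9.36 lies far from the bulk of genes, and Mzb1 at 0.57 lies close to it.

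The order of levels per length changed with genotype. In the wild type, Mzb1 (351 RPKM) stood above Xbp1 (103), Sdc1 (9.85), Ell2 (6.36), Jchain (1.41) and Prdm1 (0.576). In Pax5-/- the order was Jchain (932 ± 74 RPKM, SD, n = 2), Mzb1 (523 ± 19.9), Xbp1 (71 ± 17), Ell2 (0.818 ± 0.379), Sdc1 (0.416 ± 0.16) and Prdm1 (0.0729 ± 0.0181). Ell2 and Sdc1 came closest in Pax5-/-, with Ell2 at 0.549 RPKM in mutant 1 and Sdc1 at 0.529 in mutant 2, which rest on 13 and 11 reads and so lie within counting error of each other. No neighbours in that order overlapped between the mutants. Pax5-/- sample 2 was above sample 1 for all 6 genes. Among all tested genes this held for 6181 of 11783.

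Ratios of counts per kilobase within a library need no scaling between libraries. Jchain to Mzb1 was 1.73 and 1.84 in the Pax5-/- libraries and 0.00402 in the wild type. Jchain to Xbp1 was 14.9 and 11.9 against 0.0137, and Jchain to Ell2 was 1602 and 907 against 0.222. Jchain to Sdc1 was 2906 and 1863 against 0.143, the widest shift, 16251 fold by the geometric mean of the Pax5-/- pair. These ratios put Jchain apart from every other gene of the set in both Pax5-/- libraries.

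For Mzb1 the shifts were smaller. Mzb1 to Xbp1 was 8.62 and 6.46 in Pax5-/- and 3.41 in the wild type, a shift of 2.19 fold. Mzb1 to Sdc1 was 1679 and 1015 against 35.6, and to Ell2 926 and 494 against 55.2, so those shifts of 36.6 and 12.3 fold came mostly from the fall of Sdc1 and Ell2. Every ratio of Jchain or Mzb1 to Xbp1, Prdm1, Sdc1 and Ell2 was higher in both Pax5-/- libraries than in the wild type. With 2 samples against 1, an exact permutation test cannot go below p = 0.333, so no such ratio can pass a threshold by itself.

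**Figure D3:**
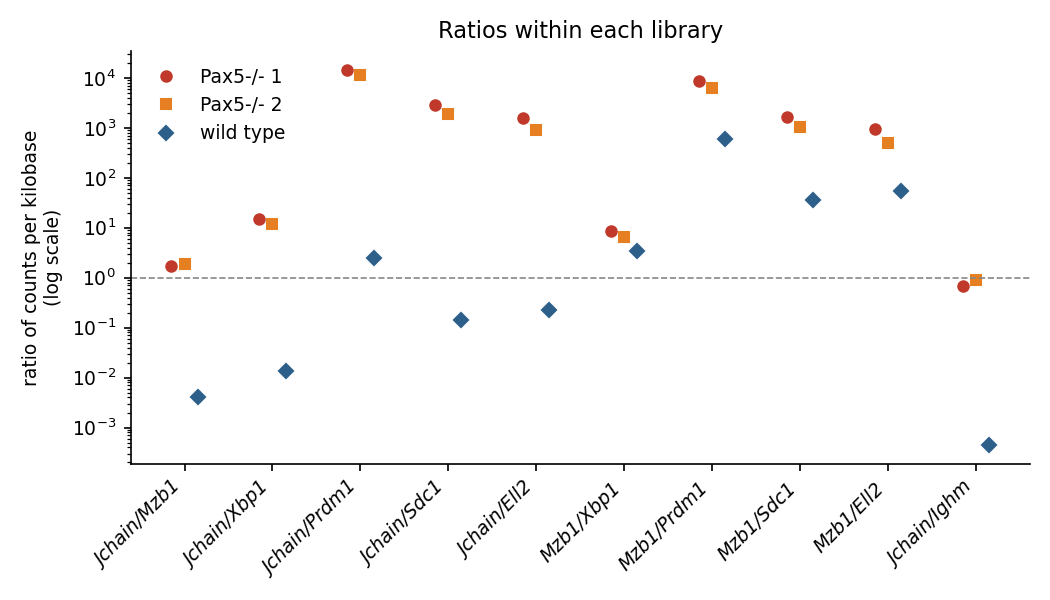
Ratio of counts per kilobase between pairs of genes within each library (log axis; dashed line, equal levels). The Pax5-/- libraries lie above the wild type for each pair, by 2.19 fold for Mzb1 to Xbp1 and by 16251 fold for Jchain to Sdc1.

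The J chain works as a partner of polymeric immunoglobulin. Of 16 listed genes of immunoglobulin chains and their receptors, 8 were tested. The list includes IgG and IgD chains that the J chain does not join. Of those tested, 8 fell and 0 rose (100% called, against 18.1% of all tested genes). The median log2 FC was -7.25, or -6.75 where the bound below stands in for genes at 0. Ighg2b, Iglc1, Iglc2, Iglc3 and Fcmr passed the filter on low counts through the wild type alone, so the filter set their direction. Ighm, the constant region of the IgM heavy chain, had 12738, 10997 and 30430 reads, a fall of 1.41 on the log2 scale (SE 0.14, edgeR adjusted p = 0.0102; not called with the imposed coefficient). Jchain to Ighm, per kilobase, was 0.668 and 0.909 in Pax5-/- and 0.000443 in the wild type. Ighg2b, Iglc1 and Iglc2 had 613, 431 and 97 wild-type reads and 0 in the mutants, at least 423-fold, 298-fold and 67-fold lower (3 counts over the group as the floor). Reads shared between the lambda constant genes are uncertain. Fcmr, the receptor for the Fc part of IgM, had 2, 1 and 189 reads, a ratio of 131 (95% counting interval 44 to 639). Igha, which encodes the IgA heavy chain, had 0, 1 and 0 reads, and Pigr, the receptor that carries polymeric immunoglobulin across epithelia, had 1, 2 and 1. Depletion of IgM+ cells, stated for Pax5-/- only, bears on this list directly, and its part in the result cannot be told apart from genotype.

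Factors that act with Blimp-1 and Xbp1 were lower or not called. Of 11, all tested, 6 fell, 0 rose and 5 were not called (54.5% called, against 18.1% of all tested genes, median log2 FC -0.84). Irf4, which plasma cells require, had 96, 130 and 2148 reads and a log2 FC of -4.30 (SE 0.20). Ikzf3, which encodes Aiolos, had 9, 22 and 1744 reads, a log2 FC of -6.86 (SE 0.42). Atf4, a stress-response factor, was at -1.70 (SE 0.14), which was not called with the imposed coefficient of 0.4. Bhlha15, which encodes the secretory-cell factor Mist1, had 109, 213 and 40 reads and was not called (log2 FC 1.95, SE 0.50, adjusted p = 0.0696). It was called higher with RLE scaling, without the filter, with DESeq2 and with the likelihood ratio test.

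Of 9 factors that hold the B-cell state and oppose plasma cell formation, 8 were tested. Of those, 6 fell and 0 rose (75% called, against 18.1% of all tested genes, median log2 FC -1.55). Spib, an ETS factor, was at 36.4 CPM in Pax5-/- and 949 in the wild type (log2 FC -4.70, SE 0.13). Bach2, a repressor of Prdm1, had 235, 315 and 2131 reads (-3.01, SE 0.19), and Irf8 was at -2.44 (SE 0.13). Bcl6, another repressor of Prdm1, was not called, with 88, 97 and 84 reads, nor was Spi1, which encodes PU.1, with 629, 783 and 470 (log2 FC 0.53, SE 0.18). Bach2 and Prdm1 thus both had fewer reads in the Pax5-/- samples, a difference called for Bach2 only.

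Secretory genes were called about as often as all tested genes, 18.9% against 18.1%. Of 54 genes of the endoplasmic reticulum and secretion, among them many Xbp1 targets, 53 were tested, 3 rose, 7 fell and 43 were not called (median log2 FC -0.06). Hspa5, the chaperone BiP, was at 756 CPM in Pax5-/- and 816 in the wild type, and Canx, calnexin, at 986 and 1026, neither called. Pdia5, a disulfide isomerase, had 280, 478 and 5 reads (log2 FC 6.15, SE 0.57, edgeR adjusted p = 0.00847), which limma-voom did not call. It passed the filter on low counts through Pax5-/- alone, so the filter set its direction. Ern1, the sensor that splices Xbp1 messenger RNA, rose from 8.42 to 51.9 CPM (log2 FC 2.62, SE 0.24). Ero1b, an oxidase of the endoplasmic reticulum, fell by 3.63 on the log2 scale (SE 0.31). Mzb1, at 0.57, thus lay above the median of these genes while Xbp1 lay below it, at -0.54.

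The surface genes of plasma cells were divided. Of 17, 11 were tested, 3 rose, 5 fell and 3 were not called (72.7% called, against 18.1% of all tested genes, median log2 FC -0.38). Cd28, which long-lived plasma cells carry, had 449, 249 and 5 reads (log2 FC 6.05, SE 0.72), not called by limma-voom. Cd38 had 2, 4 and 393 reads (-7.03, SE 0.30) and Slamf7 32, 26 and 1147 (-5.35, SE 0.20). Cd28 passed the filter on low counts through Pax5-/- alone and Cd38 through the wild type alone, so the filter set their direction. Tnfrsf17, which encodes the plasma cell receptor BCMA, had 0, 1 and 0 reads. A count of 0 allows up to 3, or 0.468 CPM in the wild type.

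Genes related to Ell2 and Sdc1 were read next, against the 18.1% called over all tested genes. Of 15 genes whose products bind Ell proteins or act beside them, 1 rose and 14 were not called (6.67% called, median log2 FC 0.10). The gene that rose was Ell3, a paralogue of Ell2, with 132, 153 and 11 reads (log2 FC 3.63, SE 0.30, edgeR adjusted p = 0.0073). Ell itself was not called, at 330, 369 and 254 reads. Thus Ell3 rose where Ell2 fell. Of 19 syndecan and heparan sulfate genes, 18 were tested, 2 rose, 2 fell and 14 were not called (22.2% called, median 0.10). Sdc4 had 420, 474 and 2100 reads and fell by 2.28 on the log2 scale (SE 0.13). Sdc3 had 461, 14 and 62, with the Pax5-/- samples on opposite sides of the wild type. Sdc2 had 0 in all 3. Hpse, which cleaves heparan sulfate, was at 2.40 (SE 0.46), a call lost with limma-voom and with the imposed coefficient of 0.4, and Ext2, a subunit of its polymerase, was at 1.16 (SE 0.15), lost with the latter. Ext1, the other subunit, fell by 0.92 on the log2 scale (SE 0.20, edgeR adjusted p = 0.0489), lost with library size alone, DESeq2, limma-voom and that coefficient.

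**Figure D4:**
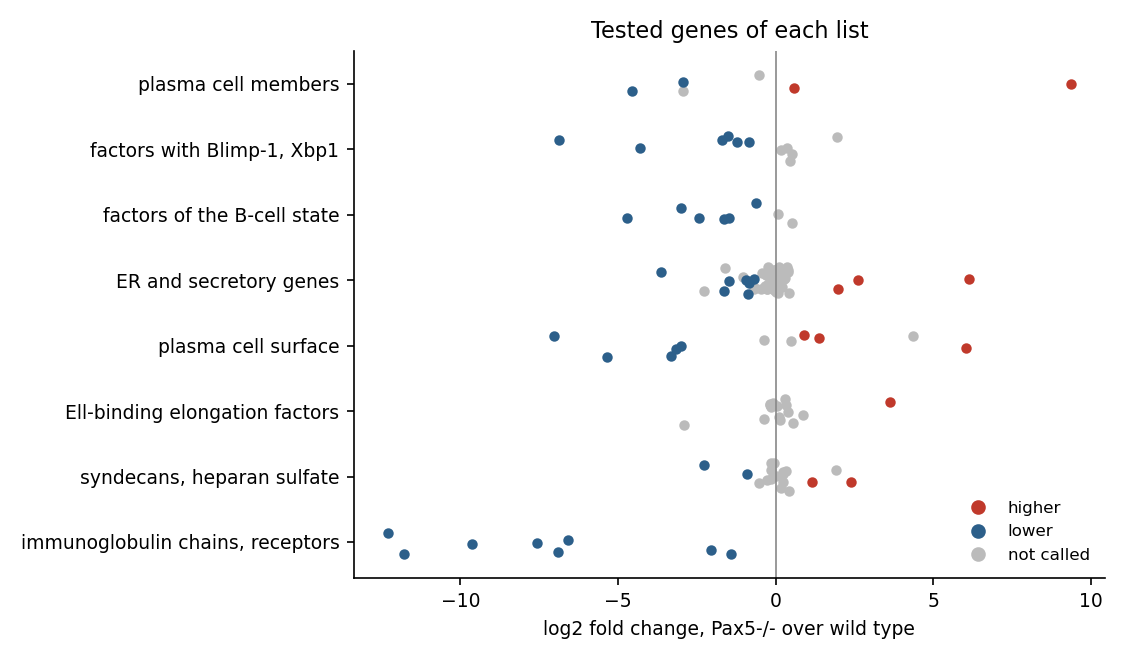
Fitted log2 FCs of the tested genes of each list, 1 point per gene (red called higher, blue called lower, grey not called; vertical scatter within a row has no meaning). The tested immunoglobulin genes all lie to the left, with 3 values of genes at 0 in Pax5-/- that depend on the prior count, and secretory genes centre on -0.06. Several of the immunoglobulin genes passed the filter through the wild type alone.

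Neighbours on the chromosome were read beside each gene, the nearest 2 on each side with a count. Enam, an enamel matrix gene 13.8 kilobases beyond the 3′ end of Jchain, had 54, 29 and 0 reads, which put the mutants at least 13.3-fold higher (edgeR adjusted p = 0.033), not called by limma-voom. Enam passed the filter on low counts through Pax5-/- alone, so the filter set its direction. On the other side Utp3 (1299, 1354 and 873 reads) and Rufy3 (137, 144 and 96) were not called, Utp3 at a log2 FC of 0.55 (SE 0.13, adjusted p = 0.0568), which passed with RLE scaling and robust dispersion estimation. Prob1, which ends 81 bases from Mzb1 in RefSeq, had 136, 142 and 21 reads and rose by a log2 FC of 2.67 (SE 0.26). Paip2, 30.1 kilobases away, rose by 0.95 (SE 0.11), a call lost with the imposed coefficient of 0.4.

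The flanks of the genes with lower values differed from each other. Beside Prdm1, Crybg1 (106, 41 and 455 reads), Atg5 (253, 258 and 408) and Prep (762, 853 and 2015) all fell. Their log2 FCs were -2.67, -0.73 and -1.37, and each lost its call under at least 1 alternative. Crybg1 lost it with DESeq2, library size alone and robust dispersion estimation, Atg5 with DESeq2 and the imposed coefficient of 0.4, and Prep with that coefficient. Beside Sdc1, the 4 neighbours Rhob, Pum2, Laptm4a and Wdr35 were not called. Pum2, 18.8 kilobases away, was at 0.12 (SE 0.14). Wdr35 was at 1.11 (adjusted p = 0.056) and was called higher with RLE scaling, without the filter, with the likelihood ratio test and with robust dispersion estimation. Beside Ell2, Glrx fell by 1.34 on the log2 scale (SE 0.17), a call lost with the imposed coefficient, while Cast and Mir682 were not called. None of the 4 neighbours of Xbp1 was called.

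**Figure D5:**
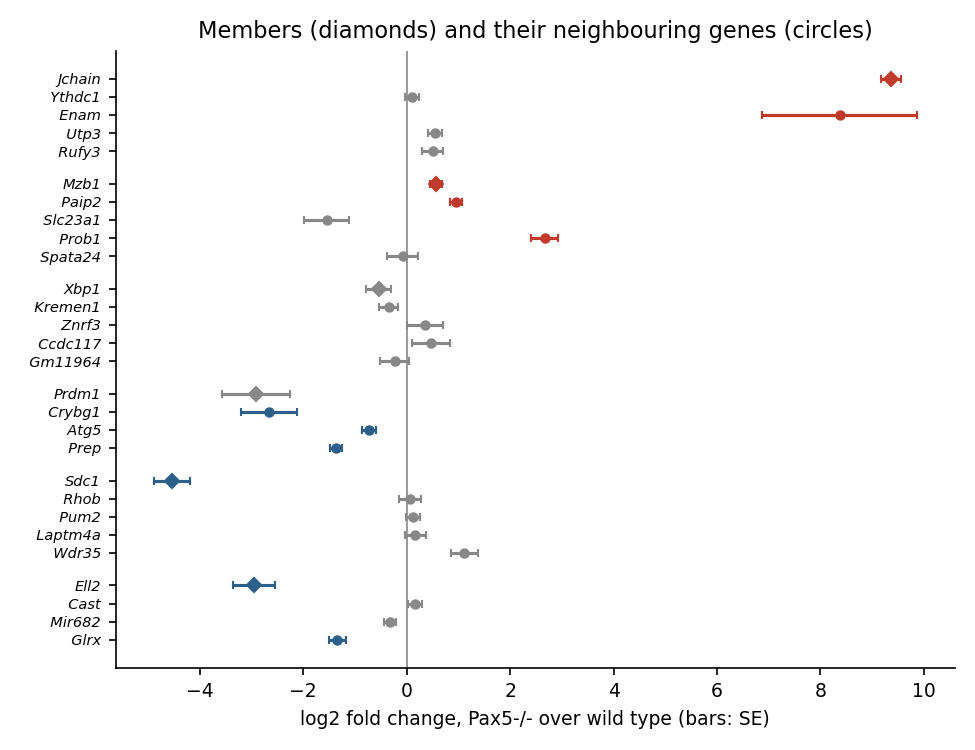
Log2 fold change with SE of each gene of the set (diamonds) and of its tested neighbours (circles; red called higher, blue called lower, grey not called). Enam, at 0 in the wild type, has a fitted value that depends on the prior count and is at least 13.3-fold higher, and the neighbours of Sdc1 sit near or above 0 while Sdc1 is at -4.54.

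Likeness to the remaining genes of the set was looked up in the same way as for Jchain. Mzb1 had close company, with Akr1b10 at a distance of 0.00294, Higd2a at 0.00597 and Dock8 at 0.00872. For Sdc1 the nearest were Fhod3 (0.0934), Plxna2 (0.159) and Dtx1 (0.176), which had 3, 5 and 120 reads. Etv5 (0.182), Rtl6 (0.251) and Gas7 (0.26) were nearest to Ell2. Klhl12 (0.016), Cep76 and Tshz1 were nearest to Xbp1, and Gpd1l (0.0187), Sbk1 and Erc1 to Prdm1.

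Marker genes were read for the labelled cell type and for others that a culture could hold. All 12 pro-B markers were detected in every library; Rag1 had 3737, 4621 and 2237 reads. Summed lymphoid progenitor markers were at 2686 and 2656 CPM in Pax5-/- and 919 in the wild type. Of 14 listed, 13 were tested and 10 rose (76.9% called, against 18.1% of all tested genes). Flt3, at 1049, 1034 and 3 reads, led them. Flt3 and Cd27 (204, 270 and 3 reads) passed the filter on low counts through Pax5-/- alone, so the filter set their direction. Kit, Il7r and Dntt, counted among those that rose, are also on the pro-B list. Of 15 plasmacytoid dendritic cell markers 5 rose, 1 fell and 6 of the 12 tested were not called (50% called), with sums of 2124, 868 and 963 CPM. Siglech, a defining marker, had 115, 182 and 18 reads, a rise that limma-voom did not call, and Klk1 had 0, 0 and 8. Irf7, at 2361, 77 and 280 reads, and Bst2, at 5098, 858 and 1685, differed widely between the Pax5-/- samples and were not called. Of the other genes that rose, Runx2 had 187, 180 and 4 reads, Smim5 138, 141 and 1, Ccr9 200, 176 and 21, and Pacsin1 61, 75 and 5. Runx2, Smim5 and Pacsin1 passed the filter on low counts through Pax5-/- alone, so the filter set their direction. Tlr9, the gene that fell, had 82, 61 and 350. Jchain in sample 2 was 1.12 times that in sample 1 (95% counting interval 1.09 to 1.15). Mature B markers summed to 89.5 and 65.4 CPM in Pax5-/- and 1324 in the wild type. All 7 tested were lower (100% called). Ms4a1, at 0, 0 and 442 reads, and H2-Ab1, at 5, 6 and 426, passed the filter through the wild type alone. Stromal markers summed to 64.7, 94 and 36.7 CPM, mostly from Thy1, which lymphoid cells also express, and without it (left out after its values were seen) to 8.8, 6.76 and 17.9 CPM. Dcn and Lum were at 0 in all 3 libraries. Summed macrophage and neutrophil markers were at 27.5, 42.3 and 81.3 CPM. Of 7 tested, 1 rose, 3 fell and 3 were not called (57.1% called, against 18.1% of all tested genes). S100a9 had 0, 0 and 232 reads, while Lyz2 had 92, 128 and 28 and was called higher. The genes that fell, S100a8, S100a9 and Ngp, were at 0 in both mutants and passed the filter through the wild type alone. The part of these markers in the values of Jchain, Mzb1, Sdc1 and Ell2 was not tested.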

How the data were processed

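Per the submitters' processing notes, the authors counted reads per gene with featureCounts on mm10. The deposited values are raw whole-number counts with an Entrez number and a gene length in bases (unit other), per the file headers. The sources used here give no version, aligner, annotation or strand setting. The table of the whole series and the files of single samples agreed in all 27179 genes.

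Symbols and coordinates come from RefSeq GRCm38.p6, which matched 93% of Entrez numbers. The fit used edgeR 4.0.16 in R 4.3.3: filterByExpr (minimum count 10) kept 11783 genes, scaling was by TMM, and glmQLFit with glmQLFTest set the mutants against the wild type, with p adjusted by Benjamini-Hochberg over all tested genes. SE is the log2 fold change over the square root of F. RPKM divides scaled CPM by the deposited length. Log2 CPM used a prior count of 2. The test was run on simulated data with the same dispersion, 0.041, for every gene and library. Of 100 genes changed by 3 on the log2 scale 97% were called, and of 100 changed by 1, 12%. Among unchanged genes 4 were called. Since the simulated wild type varied as the mutants did, the run cannot show how far the real wild type varies. Alternatives used DESeq2 1.42.0 and limma 3.58.1 among others. Intervals cover counting error only and leave out the spread between samples. No molecular identifiers are stated.

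The genes and lists were chosen with earlier results of these data known. The rule for named genes took the 6 genes, up to 3 called members per list by size of log2 fold change with a mean CPM of at least 1 (or the 2 smallest p where none was called), neighbours, the 3 most similar genes, defining markers and Pax5. Any further gene was picked with its values in view.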

Additional observations from a re-analysis of the deposited data

How the results depend on the processing

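The 9 alternatives to scaling, filter, test and dispersion left the direction of all 6 plasma cell genes as reported. For Prdm1 that direction was set by the filter on low counts. Jchain, Sdc1 and Ell2 were called and Xbp1 was not called wherever they were tested. Mzb1 lost its call with the likelihood ratio test (log2 fold change 0.57, adjusted p = 0.249) and with an assumed biological coefficient of variation of 0.4 (log2 fold change 0.57, adjusted p = 1). Prdm1 gained one with RLE scaling (-2.92), limma-voom (-2.77), robust dispersion estimation (-2.92), the likelihood ratio test (-2.92) and the assumed coefficient (-2.92); the cause was not tested. Prdm1 has no value where at least 50 counts were required, since it has fewer. The number called among the 6 was 4 or 5. Over all genes the number called went from 2130 to 1206 with the assumed coefficient and lay between 1851 and 2611 otherwise. Leaving out either Pax5-/- sample gives values with no test, since no residual degree of freedom remains: 9.14 to 9.30 in log2 CPM for Jchain, 0.53 to 0.61 for Mzb1, -0.80 to -0.31 for Xbp1, -2.41 to -2.16 for Prdm1, -4.62 to -3.99 for Sdc1 and -3.35 to -2.47 for Ell2. Genes with a fold of 2 or more numbered 2695 to 2800 with either sample alone. Those that passed this cut in each sample separately, in the same direction, numbered 2264, which cannot exceed either count. Of 809 values for 90 other genes, 768 kept direction and call, 30 lost a call, 11 gained one and 0 reversed. The wild type cannot be left out. No paired analysis was possible because the groups share only replicate number 1. At this depth, 3 counts correspond to 0.441 to 0.468 CPM, which limits Prdm1 and Sdc1 in Pax5-/-.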
